A study of Mus musculus with 25 samples.

Results

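The 5348 regions described here are places where TCF-1, once induced in a fibroblast, bound a position that already carried CTCF and cohesin. They were chosen from the 39489 TCF-1 peaks of induced NIH-3T3 cells. A peak was kept where it overlapped, by at least 1 bp, an SMC1 peak of untreated cells and a CTCF peak in both CTCF lists of untreated cells, and where it overlapped no TCF-1 peak in either list from DN3-like T cells. They are called member sites below. Of all TCF-1 peaks, 32973 lay in untreated SMC1, 6769 of these also in both untreated CTCF lists, and 1421 of those were DN3 TCF-1 sites and were set apart.

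The study asked how TCF-1 takes part in the folding of the genome, and ran chromatin immunoprecipitation followed by sequencing in 2 mouse lines. The fibroblast line NIH-3T3, of embryonic origin, had been induced to express TCF-1 (2 CTCF lists, 1 SMC1 list and 1 TCF-1 list) or left untreated (2 CTCF lists and 1 SMC1 list). Scid.adh, a thymic lymphoma line labelled as DN3 cells, either had TCF-1 knocked out or carried an empty vector, with 2 lists each for CTCF, SMC1, NIPBL and H3K27ac, and 2 TCF-1 lists for the empty vector only. The labels give neither the vector, the time of induction nor whether the induced and knockout cells are single clones, and the untreated cells are labelled with no vector. No CTCF or SMC1 list of vector-only fibroblasts was used here, so TCF-1 and the means of its induction cannot be told apart.

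CTCF is a zinc finger protein that binds a long DNA motif and halts cohesin, and SMC1 is a subunit of the cohesin ring, which extrudes loops of chromatin. NIPBL loads cohesin and is found at active promoters and enhancers, and H3K27ac is a histone mark of both. TCF-1, encoded by Tcf7, is an HMG box factor of the Wnt pathway that is needed for the T cell fate and is known to bind chromatin that is closed in other cells.

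Peak positions are given without read totals. Depth is therefore unknown, and the width of a peak in bp stands in for its strength. The CTCF lists held 68306 and 64645 peaks in induced cells, against 38369 and 41236 in untreated cells, and the SMC1 lists held 95293 peaks in induced cells, against 105033 in untreated cells. No peak was narrower than 200 bp. Members are not independent, since 264 CTCF regions held more than 1 member (up to 4) and 342 untreated SMC1 peaks did.

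Since the members were picked by overlap with untreated CTCF and SMC1 and with induced TCF-1, their presence in those lists is a description of the choice. At the edge of the rule, 152 members overlapped a CTCF peak by under 50 bp in at least 1 list, and 34 TCF-1 sites counted as CTCF-free lay within 50 bp of a peak in both lists. A further 1813 TCF-1 sites in SMC1 had CTCF in just 1 untreated list, and 10 had CTCF in both lists but no SMC1. The members touched 5054 of the 33327 CTCF cohesin regions of untreated cells (merged CTCF peaks found in both lists that overlap SMC1). The 4899 of these with no DN3 TCF-1 peak are set below against the 26322 CTCF cohesin regions that held no TCF-1 peak. That comparison shares its lists with the rule, so its values are given without a test.

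The sequence under most members could not be read from the sources used here, but 1163 promoter windows of 1055 genes overlapped a member. A window can reach beyond the member it touches, so a match in it need not lie under the TCF-1 peak. Windows run from 250 bases before to 50 bases after the gene start and come from RefSeq (GRCm38.p6). A core of the CTCF motif, CCANNAG directly followed by NNGGC, searched on both strands, was present in 75 of them (6.45%, 95% Wilson interval 5.18 to 8.01), and lay wholly under a member's TCF-1 peak in 63 of the 75. It was present in 8.49% of the 671 windows on a CTCF cohesin region without TCF-1 and in 2.37% of all 21044 windows. A TCF/LEF motif, CTTTGAT, searched on both strands, was present in 19 windows with a member (1.63%, interval 1.05 to 2.54), under the TCF-1 peak in 15 of the 19. The share was 1.79% (interval 1.03 to 3.10) of the windows on a CTCF cohesin region without TCF-1 and 3.25% of all windows. Promoters with other TCF-1 sites, 6492 windows, held the CTCF core in 2.48% and the TCF/LEF motif in 2.70%. No CTCF core match overlapped a TCF/LEF match in any window, but the letters of the 2 motifs leave almost no way for them to overlap. A missing match says that these letters were not in the window.

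The 3 promoters below show the layout: each has its CTCF core, in capitals, under the TCF-1 peak of a member. They rank among the widest of the 75 in all fibroblast lists, and the choice was made with their values in view. Each sequence is on the gene's own strand, 5′ to 3′.
Psat1, chr19:15924573-15924872, minus strand: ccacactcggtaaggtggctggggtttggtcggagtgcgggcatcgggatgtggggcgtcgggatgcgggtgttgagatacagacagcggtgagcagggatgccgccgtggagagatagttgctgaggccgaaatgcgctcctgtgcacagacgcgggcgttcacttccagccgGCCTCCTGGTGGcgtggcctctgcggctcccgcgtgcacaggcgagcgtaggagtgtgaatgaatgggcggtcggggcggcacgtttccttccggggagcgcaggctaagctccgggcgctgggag
Bcl2l1, chr2:152830668-152830967, minus strand: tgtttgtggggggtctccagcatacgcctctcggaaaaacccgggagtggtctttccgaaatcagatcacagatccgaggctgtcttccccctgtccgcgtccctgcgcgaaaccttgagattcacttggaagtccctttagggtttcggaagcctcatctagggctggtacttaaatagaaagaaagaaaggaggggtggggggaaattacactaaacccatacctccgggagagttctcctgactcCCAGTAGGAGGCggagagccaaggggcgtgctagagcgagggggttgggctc
S100a6, chr3:90612644-90612943, plus strand: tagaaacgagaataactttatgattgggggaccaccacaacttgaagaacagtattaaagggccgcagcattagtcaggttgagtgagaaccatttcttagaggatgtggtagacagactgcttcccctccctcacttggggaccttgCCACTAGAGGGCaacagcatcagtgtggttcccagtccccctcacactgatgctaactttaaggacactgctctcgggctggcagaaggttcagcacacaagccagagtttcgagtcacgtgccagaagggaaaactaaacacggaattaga

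Psat1 encodes an enzyme of serine synthesis, and the CTCF core began 76 bases before its start. The TCF-1 peak there was 2113 bp wide, and the CTCF peak measured 1450 and 1242 bp in induced cells, against 1166 and 1126 bp in untreated cells. At Bcl2l1, which encodes the survival protein Bcl-xL, they measured 1591 and 1531 bp in induced cells, against 1468 and 1474 bp in untreated cells. At S100a6, a calcium-binding protein gene, they measured 777 and 825 bp in induced cells, against 579 and 794 bp in untreated cells. Induced widths were above untreated widths in both lists at Psat1 and Bcl2l1, while the S100a6 groups overlapped.

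CTCF and cohesin stayed at nearly every member after TCF-1 was induced. CTCF was present in both induced lists at 5275 members (98.6%, 95% Wilson interval 98.3 to 98.9), in 1 list at 58 and in neither at 15 (0.280%). Of all CTCF regions found in both untreated lists, 0.112% had no peak in either induced list. Counted by CTCF region, 7 of 4899 with a member (0.143%, interval 0.0692 to 0.295) and 9 of 26322 without TCF-1 (0.0342%, interval 0.0180 to 0.0650) had none. SMC1 was present in the induced list at 5343 members (99.9%) and absent at 5. Of all untreated SMC1 peaks, 22.4% had no induced peak, and of the CTCF cohesin regions without TCF-1, 2.33% had none. These intervals cover counting over sites and not the spread between libraries.

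A member counts as without CTCF where no induced CTCF peak touches its TCF-1 peak, and its CTCF region may still keep one. Of the 15 members without CTCF in either induced list, the 9 named here all had SMC1 after induction. The member in Rara, a retinoic acid receptor gene, had CTCF peaks of 422 and 445 bp in untreated cells, and SMC1 peaks of 4768 bp in induced cells, against 4687 bp in untreated cells. The member beside Tob2, an antiproliferative gene, had CTCF peaks of 1178 and 1016 bp in untreated cells, the widest pair among those named, and SMC1 of 4453 bp in induced cells, against 5034 bp in untreated cells. The others lay at Eef1g, Ccdc136, Eci1, Ptprm, Pakap, Exoc1 and Rrp36, with untreated CTCF widths between 200 and 1313 bp. At these 9 members, SMC1 spanned 1268 to 7204 bp in induced cells, against 1196 to 9330 bp in untreated cells. Of the 5 members without SMC1 in induced cells, the rule reached those at Erf, an ETS family repressor, and Xkr7, where untreated SMC1 peaks spanned 974 and 343 bp. CTCF stayed at both.

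CTCF peaks at the members were wider in induced cells. Over the 5275 members with CTCF in all 4 lists, the median width was 796 and 731 bp in the induced lists, against 504 and 540 bp in the untreated lists. The induced lists averaged 763.5 ± 46.0 bp and the untreated lists 522 ± 25.5 bp (SD, n = 2 lists each). The groups did not overlap, and the 2-sided exact permutation p was 0.333, the smallest that 2 lists against 2 can give. Per site, the median log2 ratio of induced to untreated width was 0.43, a 1.35-fold widening, and 1 in 10 members was under 0.02 while 1 in 10 was above 1.12. Same-condition lists differed by less, with a median log2 difference of −0.06 between the 2 induced lists and 0.05 between the 2 untreated lists. The induced CTCF lists were also longer, with a median width over all peaks of 407 and 402 bp, against 376 and 384 bp in the untreated lists. The part of these list-wide differences in the widening was not tested.

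The widening was shared by CTCF sites that TCF-1 did not bind. At CTCF cohesin regions without TCF-1, the median CTCF width was 557 and 536 bp in induced cells, against 373 and 386 bp in untreated cells, a median log2 ratio of 0.49. At regions with a member the ratio was 0.44. Both induced widths were above both untreated widths at 3762 of the 5275 members (71.3%), while 79.2% of all CTCF regions tested met the same criterion, so the members fell short of the background. Both were below at 52 members (0.986%), against 0.669% of all regions, and the groups overlapped at the other 1461.

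**Figure D1:**
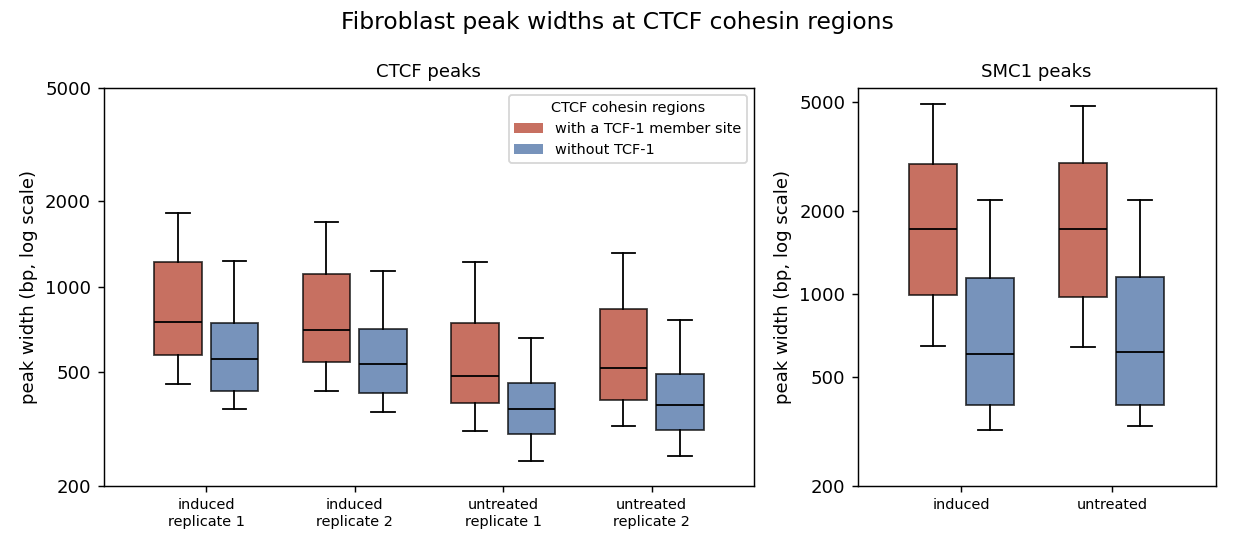
Widths in bp (log axis) of fibroblast CTCF peaks (left, 2 lists per condition) and SMC1 peaks (right, 1 list per condition) at CTCF cohesin regions with a member site (red) and without TCF-1 (blue). Boxes span the lower to upper quartile with the median, and whiskers run from the 10th to the 90th percentile over regions; CTCF boxes sit higher in both induced lists for both kinds of region, and SMC1 boxes differ between kinds of region, with medians of 1725 and 604 bp in induced cells, and not between conditions.

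The order of the 2 kinds of region differed between all widths pooled and groups of like untreated CTCF width. Regions with a member started wider, at a median of 485 and 517 bp in the untreated lists, against 373 and 385 bp without TCF-1. In 4 quartile groups of untreated CTCF width, from narrowest to widest, the log2 ratio was 0.59, 0.50, 0.40 and 0.21 with a member. It was 0.54, 0.48, 0.35 and 0.20 without TCF-1. The untreated width is also the denominator of the ratio, so the grouping by itself can make the ratio fall along the groups, and this was not tested. Regions with a member were slightly ahead in every group of untreated CTCF width. They were behind when all widths were pooled, at 0.44 with a member and 0.49 without TCF-1. They were also behind in every quartile group of untreated SMC1 width. There the CTCF ratio was 0.46, 0.42, 0.42 and 0.48 with a member, against 0.49, 0.47, 0.54 and 0.56 without TCF-1. The order thus depended on the grouping. In the groups of untreated CTCF width, the share that widened in both lists gave no single order. It was 87.3, 82.3, 63.1 and 56.2% with a member, against 90.7, 80.2, 56.4 and 65.1% without TCF-1.

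**Figure D2:**
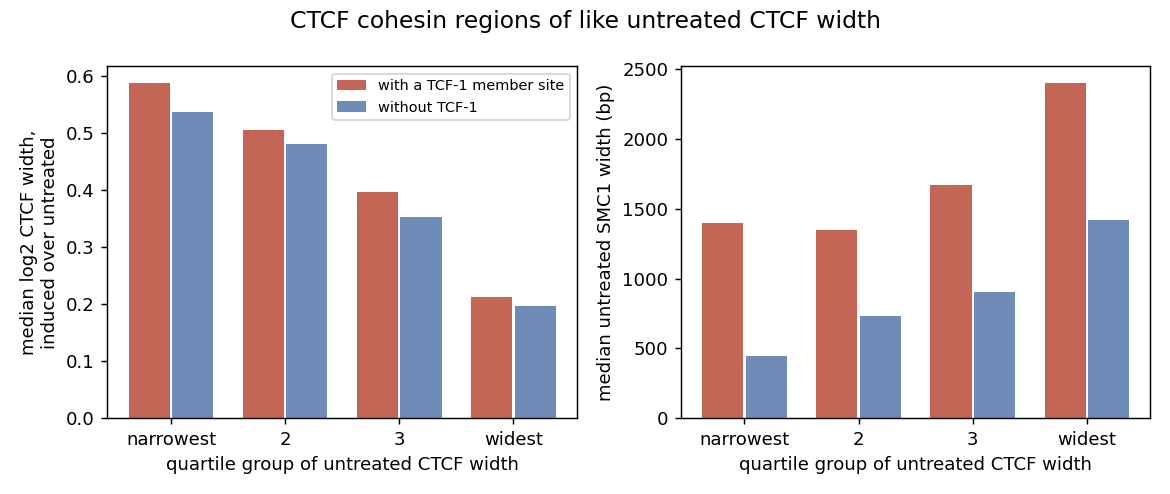
CTCF cohesin regions with a member site (red) and without TCF-1 (blue), in quartile groups of the untreated CTCF width set over regions with a member. Bars on the left give the median log2 ratio of induced to untreated CTCF width, which falls along the groups in both kinds of region (untreated width is also the denominator) and is slightly higher with a member; bars on the right give the median untreated SMC1 width in bp, which is higher with a member in each group (1397 against 443 bp in the narrowest, 2401 against 1423 bp in the widest).

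CTCF peaks widened on both sides, and not more toward TCF-1. The centre of the TCF-1 peak lay a median of 152 and 148.5 bp from the centre of the CTCF peak in the induced lists, against 127 and 135 bp in the untreated lists. It fell inside the CTCF peak at 93.6 and 91.4% of members in induced cells, against 83.9 and 84.3% in untreated cells. The edge on the TCF-1 side moved out by a median of 78, 85, 62 and 70 bp in the 4 pairs of an induced and an untreated list, and the opposite edge by 79, 92, 68 and 77 bp. The side was read from one untreated list and the movement from the other. Where the centres were at least 200 bp apart, the TCF-1 side moved by 83, 90, 63 and 69 bp and the far side by 84, 99, 67 and 82 bp.

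A wide induced peak can cover several untreated peaks. This held for 2.91 to 4.06% of members over the 4 pairs of lists, with median log2 ratios of 2.01 to 2.06, and the remaining members had median ratios of 0.31 to 0.46. Among regions without TCF-1, 1.84 to 2.38% of induced peaks covered several untreated peaks.

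Hes1, the Notch-induced repressor, had the largest CTCF gain. The member 1776 bp outside the gene had CTCF peaks of 7501 and 2334 bp in induced cells, against 306 and 200 bp in untreated cells. Hes1 held 3 further members at the gene itself, and the same 7501 bp peak of induced replicate 1 ran across all 4, over 4 untreated peaks of replicate 1. SMC1 there spanned 16384 bp in induced cells, against 17370 bp in untreated cells. Rbpj, the DNA-binding partner of Notch, had CTCF peaks of 1759 and 5726 bp in induced cells, against 315 and 602 bp in untreated cells. At the Rbpj member and the Hes1 member outside the gene, each induced list lay above both untreated lists. The 2 induced lists differed widely from each other at both. At the 3 members at Hes1 itself the groups overlapped, with 7501 and 1352 bp in induced cells, against 1818 and 1194 bp in untreated cells.

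The other large gains were more even between lists. In Gnb5, a G protein subunit gene, CTCF peaks spanned 2701 and 2656 bp in induced cells, against 208 and 218 bp in untreated cells, each induced peak covering 2 untreated ones. In Lmnb1, the lamin B1 gene, they spanned 3142 and 3163 bp in induced cells, against 284 and 303 bp in untreated cells, covering 3. Pptc7, Tmem63a, Map3k14 (the kinase NIK of the noncanonical NF-kB pathway) and Plxnd1 (a semaphorin receptor) had gains over a single untreated peak. At Plxnd1 the widths were 1682 and 1712 bp in induced cells, against 205 and 303 bp in untreated cells. Antxr1 and Tmem11 completed the 10, with log2 ratios of 2.82 and 2.77. All 10 log2 ratios lay between 2.77 and 4.08, and SMC1 at these members changed by a log2 ratio between −0.41 and 0.53.

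CTCF became narrower in both lists at few members, 52 in all, of which 17 were at gene starts and 16 lay between genes. The 10 named here had the largest losses among those with a gene within 10 kb. At the start of Cers5, a ceramide synthase gene, CTCF peaks spanned 267 and 200 bp in induced cells, against 1805 and 940 bp in untreated cells. Those at the start of Ttc39b spanned 885 and 847 bp in induced cells, against 2502 and 2553 bp in untreated cells. In Runx2, the master regulator of bone formation, they spanned 419 and 417 bp in induced cells, against 981 and 952 bp in untreated cells. SMC1 at these 3 members changed by log2 ratios of 0.24, −0.01 and −0.36. The member in Itga5, which encodes the fibronectin receptor subunit integrin alpha 5, had CTCF of 437 and 506 bp in induced cells, against 627 and 1491 bp in untreated cells. Its SMC1 peak spanned 2570 bp in induced cells, against 12304 bp in untreated cells. Ubtd1, Slc35d1, Fam114a1, Tesk2, Fhl3 and Cflar, an inhibitor of caspase-8, made up the rest, with log2 ratios from −1.71 to −0.91.

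Cohesin at the members had been broad before TCF-1 arrived and was no broader after. The median SMC1 width at members was 1834 bp in the induced list, against 1830 bp in the untreated list, with 1 list each and so no test. Per site the median log2 ratio was 0.00, with 1 in 10 members under −0.62 and 1 in 10 above 0.62. SMC1 was at least 1.5-fold wider at 575 members (10.8%), against 16.1% of all SMC1 peaks tested. It was at least 1.5-fold narrower at 578 (10.8%), against 14.7% of all. Both shares were below that background, which holds SMC1 peaks of every kind. Among CTCF cohesin regions, SMC1 was at least 1.5-fold wider at 11.1% with a member, against 8.98% without TCF-1. The median member stood at percentile 86.7 of SMC1 width in the induced list, against 88.0 in the untreated list.

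CTCF cohesin regions without TCF-1 had much narrower cohesin. Their median SMC1 width was 604 bp in induced cells, against 613 bp in untreated cells, while regions with a member had 1725 bp in induced cells, against 1728 bp in untreated cells. The gap was there at like CTCF width: in the narrowest group of untreated CTCF width, untreated SMC1 spanned 1397 bp with a member and 443 bp without TCF-1. A wider SMC1 or CTCF peak also offers more room for an overlap with TCF-1, and the part of this in the gap was not tested. In the narrowest group of untreated SMC1 width the median log2 ratio of SMC1 was 0.12 with a member and −0.01 without TCF-1, and in the widest it was −0.07 with a member and −0.12 without TCF-1.

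Single members had large changes of SMC1 with modest changes of CTCF. The member beside Foxo6, a forkhead factor gene, had SMC1 of 2832 bp in induced cells, against 200 bp in untreated cells, the width limit of the list. In Nedd4, a ubiquitin ligase gene, SMC1 spanned 12771 bp in induced cells, against 1159 bp in untreated cells, and CTCF 642 and 674 bp in induced cells, against 438 and 424 bp in untreated cells. Trp53inp2, Slf2 and Hivep3 followed, with SMC1 log2 ratios of 3.31, 3.06 and 3.06. In the other direction, the member in Eef1g, a translation elongation factor gene, had SMC1 of 1145 bp in induced cells, against 9330 bp in untreated cells. The Eef1g member without induced CTCF, 4294 bp from a gene end, had SMC1 of 7204 bp in induced cells, also against 9330 bp in untreated cells. The Eef1g members thus lay under different induced peaks and had the same untreated width, so 1145 bp describes only part of that locus in induced cells. Whether other broad untreated SMC1 peaks were split in the induced list was not tested. Kdm2a, a histone demethylase gene, had 392 bp in induced cells, against 3159 bp in untreated cells. Mrpl4, Zfp367 and Myadm completed the group, with log2 ratios between −2.84 and −2.77. With 1 SMC1 list per condition these changes have no replicate check.

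The member sites stood at gene starts more often than CTCF cohesin regions without TCF-1, and somewhat more often than TCF-1 peaks at large. A gene start lay within 1 kb of 1462 members (27.3%), against 21.7% of all fibroblast TCF-1 peaks. Each site was placed in 1 class only, so a site near both a start and a 3′ end counts once. The class within 1 kb of a gene's 3′ end held 138 members (2.58%). A further 343 (6.41%) lay within 1 kb of an end of a gene whose strand was not known here. Of the rest, 1562 (29.2%) lay inside a gene and 1843 (34.5%) between genes. Strand was known for 17273 of the 21627 protein-coding genes, so the share at starts is a lower count. Compared by region, 26.3% of CTCF regions with a member and 4.46% of those without TCF-1 lay within 1 kb of a gene start (95% Wilson interval for regions without TCF-1, 4.21 to 4.71). In the class at 3′ ends the shares were alike, at 2.90 and 3.16% of all regions, but regions placed in another class are not counted there.

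**Figure D3:**
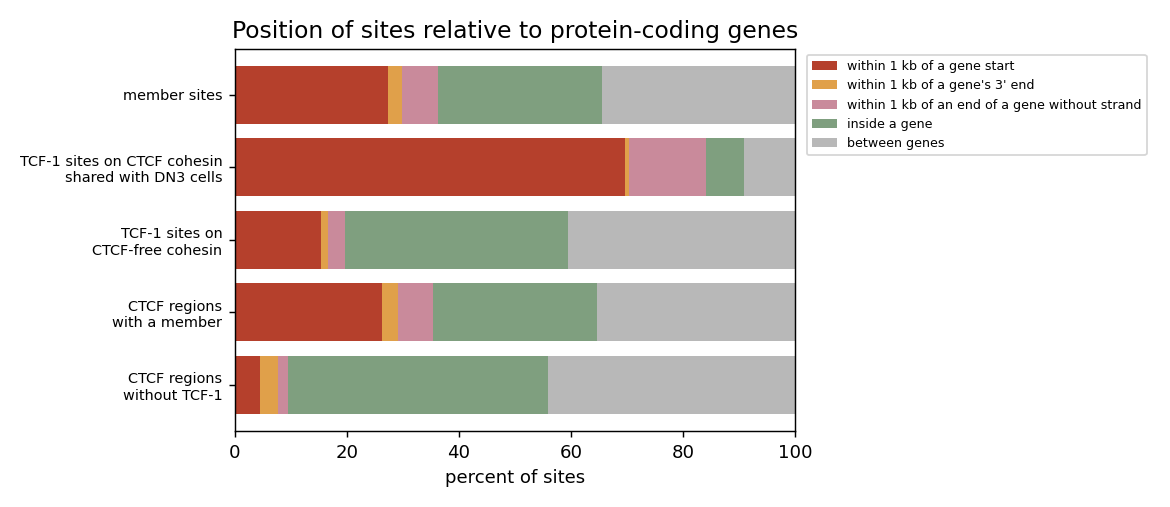
Share of sites in percent by position relative to protein-coding genes, from top to bottom for member sites, TCF-1 sites on CTCF cohesin shared with DN3 cells, TCF-1 sites on CTCF-free cohesin, CTCF cohesin regions with a member and CTCF cohesin regions without TCF-1. The red segment, within 1 kb of a gene start, covers 27.3% of members, 69.7% of shared sites, 15.4% of CTCF-free sites, 26.3% of regions with a member and 4.46% of regions without TCF-1.

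Either gene end, whatever the strand, was within 1 kb of 1733 members (32.4%, interval 31.2 to 33.7), against 24.4% of all fibroblast TCF-1 peaks, and 930 members (17.4%) overlapped one. The median distance to a gene end was 4684 bp, and 680 members (12.7%) were over 50 kb away. Of CTCF regions, 31.9% with a member and 8.68% without TCF-1 had a gene end within 1 kb. The 21707 TCF-1 sites on CTCF-free cohesin had a gene start within 1 kb at 15.4% and the 1421 sites shared with DN3 cells at 69.7%, so the members lay between the 2 other groups of TCF-1 sites.

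Members at gene starts had wide peaks. Their median CTCF width was 1020 and 864 bp in induced cells, against 591.5 and 657 bp in untreated cells, and their SMC1 width 2234 bp in induced cells, against 2300.5 bp in untreated cells. Members inside genes had CTCF of 728 and 668 bp in induced cells, against 464 and 502.5 bp in untreated cells, and SMC1 of 1638 bp in induced cells, against 1565.5 bp in untreated cells. The log2 CTCF ratio was close in all positions, between 0.35 at 3′ ends and 0.45 inside genes. CTCF widened in both lists at 65.3% of members at gene starts and at 75.5% of those between genes.

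Of the 10 members with the highest ranks in all 7 fibroblast lists, 8 were at gene starts and all lay within 10 kb of a gene. The member at the start of Socs1, the suppressor of cytokine signalling, was in the top 1% of every list, with a TCF-1 peak of 1467 bp. Its CTCF peaks spanned 3887 and 3906 bp in induced cells, against 2710 and 2565 bp in untreated cells. Dusp1, the phosphatase that switches off MAP kinases, held 2 of the 10 members, under the same CTCF peak of 2515 and 1979 bp in induced cells, against 2506 and 1930 bp in untreated cells. SMC1 over Dusp1 spanned 13959 bp in induced cells, against 8492 bp in untreated cells. Scd2, a fatty acid desaturase gene, had SMC1 of 23767 bp in induced cells, against 17400 bp in untreated cells. The rest lay at Hnrnpul1, Lrp1 (an endocytic receptor), Dact3 (a Dishevelled-binding antagonist of Wnt signalling), Gabbr1 and Ccn1, and 6282 bp from Msl1. Their CTCF log2 ratios ran from 0.02 to 0.56.

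Genes of fibroblast identity often had a member within 10 kb. Of 24 listed fibroblast matrix and mesenchyme genes, 15 (62.5%) had one, against 21.5% of all 21627 protein-coding genes. Among genes with a CTCF cohesin region within 10 kb, the shares were 65.2% of 23 fibroblast genes and 32.4% of 14380 genes. On this base the cohesin and CTCF genes stood higher, at 70% of 10. The Wnt, T lineage and housekeeping lists had 35.7% of 14, 27.8% of 18 and 8.33% of 12. With or without such a region, a member was near 7 of 15 cohesin and CTCF genes and 5 of 19 Wnt feedback and TCF target genes. The counts were 5 of 24 T lineage genes and 1 of 14 ribosomal and other housekeeping genes (B2m). These lists were drawn up with earlier results of these data known and gene length was not balanced between them, so the counts are descriptions.

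Several collagen and mesenchyme genes with a member had much narrower SMC1 in induced cells. SMC1 was at least 1.5-fold narrower at 8 of the 21 members of fibroblast genes (38.1%), spread over 6 of the 15 genes, against 14.7% of all SMC1 peaks, and at least 1.5-fold wider at 1. None of the 8 cohesin and CTCF, 8 Wnt, 10 T lineage and 1 housekeeping members was narrower to this degree. These counts rest on 1 SMC1 list per condition. They are over members, and 3 of the 8 lay under the same Ccn1 peak, while the background is over peaks. The narrowed peaks named here all spanned more than 5131 bp in untreated cells, the 90th percentile over members. The median over all untreated SMC1 peaks was 547 bp, and no share for peaks of like width was taken. At the start of Col1a2, a chain of type I collagen, SMC1 spanned 11582 bp in induced cells, against 42117 bp in untreated cells, the widest SMC1 peak at any member in untreated cells. At Lox, the enzyme that crosslinks collagen, it spanned 4523 bp in induced cells, against 17125 bp in untreated cells. At Col6a1 it spanned 4898 bp in induced cells, against 22232 bp in untreated cells, and at Col3a1 5990 bp in induced cells, against 12150 bp in untreated cells. Ccn1, a matricellular protein gene with 3 members, had 9811 bp in induced cells, against 16262 bp in untreated cells, and Twist1, a mesenchymal transcription factor gene, 4156 bp in induced cells, against 7801 bp in untreated cells. Others did not share this: Col1a1, with 2 members, had 21372 bp in induced cells, against 17506 bp in untreated cells, and Pdgfrb, a growth factor receptor gene, 1902 bp in induced cells, against 936 bp in untreated cells. At Sparc it spanned 7543 bp in induced cells, against 7192 bp in untreated cells.

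CTCF at the same genes widened at about the background share. Both induced widths were above both untreated widths at 15 of the 20 members of these genes found in all lists, where 79.2% of all CTCF regions met this criterion. At Postn, the periostin gene, it spanned 1889 and 1884 bp in induced cells, against 624 and 478 bp in untreated cells. The member at the start of Pdgfra, the platelet-derived growth factor receptor alpha gene, had CTCF of 1701 and 1614 bp in induced cells, against 480 and 871 bp in untreated cells. At Ccn2 it spanned 552 and 497 bp in induced cells, against 242 and 264 bp in untreated cells. At Col1a2 the groups overlapped, with 1142 and 1755 bp in induced cells, against 855 and 1350 bp in untreated cells. Col3a1 overlapped too, with 470 and 431 bp in induced cells, against 331 and 567 bp in untreated cells, and so did Snai2.

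The machinery that builds loops was itself among the genes with members. The member at the start of Ctcf had CTCF peaks of 1561 and 1565 bp in induced cells, against 938 and 1124 bp in untreated cells. Inside Stag1, a cohesin subunit gene, 1 member at an annotated start had CTCF peaks that spanned 1867 and 1840 bp in induced cells, against 1187 and 1182 bp in untreated cells. At Nipbl the groups overlapped, with 2526 and 2718 bp in induced cells, against 1719 and 3640 bp in untreated cells, and they overlapped at Smc3 and Pds5b. Pds5a and Esco1, the cohesin acetyltransferase, had wider peaks in both induced lists.

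Among Wnt and T lineage genes, members lay at Tcf7l1 and Tcf7l2, the relatives of Tcf7. Tcf7l1 had 2 members, and at its start CTCF spanned 1258 and 1372 bp in induced cells, against 541 and 564 bp in untreated cells. At the start of Tcf7l2, under an SMC1 peak of 11296 bp in induced cells, against 11349 bp in untreated cells, CTCF widths overlapped between groups, with 564 and 607 bp in induced cells, against 440 and 566 bp in untreated cells. Both Myc members lay under 1 CTCF peak of 2758 and 2717 bp in induced cells, against 2639 and 2640 bp in untreated cells, and SMC1 there spanned 10359 bp in induced cells, against 14289 bp in untreated cells. In Runx1, a regulator of blood cell fate, 1 of 2 members had SMC1 of 5011 bp in induced cells, against 1288 bp in untreated cells. The other spanned 7629 bp in induced cells, against 10509 bp in untreated cells. Near Gata3, the T helper factor gene, CTCF spanned 636 and 632 bp in induced cells, against 505 and 520 bp in untreated cells.

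Members gathered at some genes, both long and short. Of all protein-coding genes, 3571 had 1 member within 10 kb, 859 had 2, and 14 had 5 or more. Dlgap1, a synaptic scaffold gene of 852 kb, had 10 of its 18 TCF-1 sites as members, among 15 CTCF cohesin regions. Pakap had 7 members of 37 TCF-1 sites. The 12 genes with 5 members included Ahnak, Fkbp5 (a co-chaperone of steroid receptors), Macf1, Nrg1, Nrp2 and Runx2. Lengths of the 12 ran from 31.7 kb at Pdzd7 to 1084 kb at Nrg1. Of the Dlgap1 members, 3 shared 1 CTCF peak of 2623 and 2739 bp in induced cells, against 2603 and 3036 bp in untreated cells. Chromosome 17, where Dlgap1 lies, had the highest share of CTCF cohesin regions with a member, 20.4%, and chromosome X the lowest, 7.39%.

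The median change in CTCF was much the same at every width of the TCF-1 peak. In quartile groups of TCF-1 width, with medians of 224, 303, 428 and 708 bp, the median log2 CTCF ratio was 0.42, 0.44, 0.43 and 0.45. The share that widened in both lists fell along the groups, at 76.6, 73.9, 70.2 and 64.6%. SMC1 width rose with TCF-1 width, at 1434.5, 1556, 1848 and 2596 bp in induced cells, against 1490, 1549, 1839.5 and 2526 bp in untreated cells. Wider TCF-1 peaks stood at gene starts more often (19.5, 22.8, 30.2 and 36.9%). They coincided less often with DN3 CTCF in both empty vector lists (76.3, 75.7, 64.2 and 50.6%). The 4 groups are drawn from 1 TCF-1 list, so these orders have no replicate check.

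**Figure D4:**
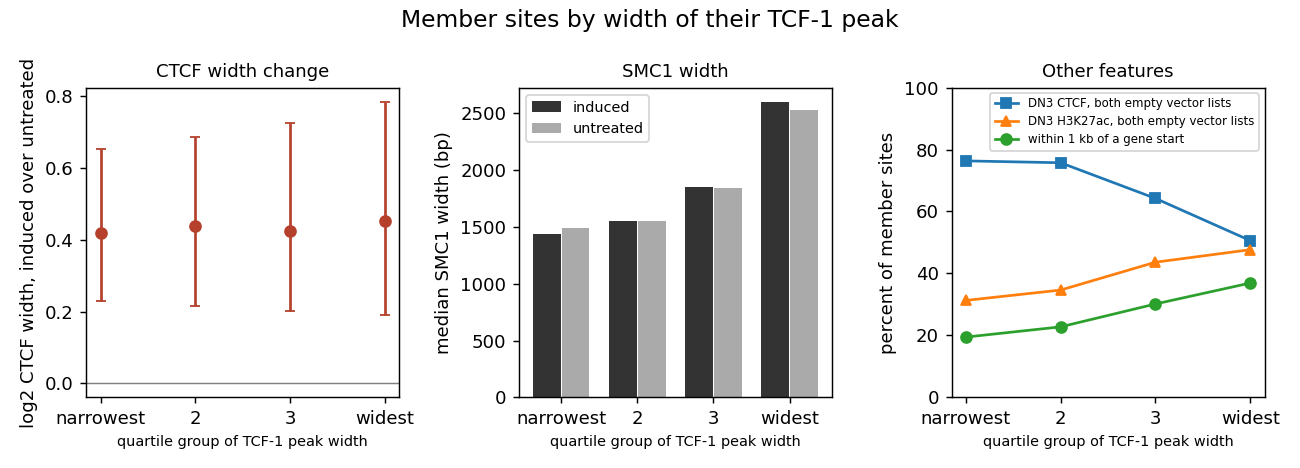
Member sites in quartile groups of TCF-1 peak width, from narrowest to widest. Left, median log2 ratio of induced to untreated CTCF width with bars from the lower to the upper quartile over sites, flat between 0.42 and 0.45; middle, median SMC1 width in bp for induced (dark) and untreated cells (grey), rising with TCF-1 width in both; right, percent of members with DN3 CTCF, with DN3 H3K27ac (both empty vector lists each) and within 1 kb of a gene start.

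In DN3-like cells, whose own TCF-1 does not bind these sites by the rule, most members still had CTCF. CTCF was in both lists at 3777 members (70.6%) in TCF-1 KO cells, against 3568 (66.7%) in empty vector cells. SMC1 was in both lists at 74.9% in TCF-1 KO cells, against 71.0% in empty vector cells. NIPBL was in both lists at 21.7% in TCF-1 KO cells, against 15.7% in empty vector cells, and H3K27ac at 38.3% in TCF-1 KO cells, against 39.3% in empty vector cells. By single list, CTCF covered 73.7 and 71.4% of members in TCF-1 KO cells, against 67.6 and 71.8% in empty vector cells, so the groups overlapped. SMC1 covered 75.8 and 76.6% in TCF-1 KO cells, against 72.1 and 74.5% in empty vector cells, without overlap. The same order held at CTCF cohesin regions without TCF-1. There SMC1 covered 88.5 and 91.0% in TCF-1 KO cells, against 79.1 and 84.3% in empty vector cells. At members, NIPBL lists differed most within a group, at 38.8 and 22.2% in TCF-1 KO cells, against 16.6 and 26.5% in empty vector cells. An exact permutation test of 2 lists against 2 cannot give a p under 0.333.

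Few members gained or lost a DN3 peak with TCF-1. CTCF was in both TCF-1 KO lists and neither empty vector list at 65 members (1.22%), and the reverse held at 17 (0.318%). Of all DN3 CTCF regions, 6.36% and 0.460% were of these kinds. SMC1 had 80 members with TCF-1 KO peaks only, where 9.26% of all SMC1 regions qualified, and 15 with empty vector peaks only, against 0.969% of all. For NIPBL, 90 members (1.68%) had TCF-1 KO peaks only, against 5.88% of all regions, and 6 had empty vector peaks only, against 0.251% of all. For H3K27ac, 53 members (0.991%) had TCF-1 KO peaks only, against 4.83% of all regions, and 92 (1.72%) had empty vector peaks only, against 7.99% of all. Members include sites with no DN3 peak at all, while the background holds regions with at least 1 peak, so shares of the members are on a wider base. Over CTCF cohesin regions, with or without a DN3 peak, the order was not the same for every factor. NIPBL had TCF-1 KO peaks only at 1.82% of CTCF regions with a member, against 0.748% of those without TCF-1, and H3K27ac had empty vector peaks only at 1.74%, against 0.942%. SMC1 had TCF-1 KO peaks only at 1.51% of regions with a member, against 3.95% without TCF-1, and CTCF at 1.31%, against 2.19%. This base is not alike either. NIPBL was in no DN3 list at 60.2% of regions with a member, against 86.8% without TCF-1, and H3K27ac at 55.5%, against 83.1%. SMC1 was in none at 19.8%, against 7.73%, and CTCF at 22.2%, against 6.83%. The part of this occupancy in the order was not tested.

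Compared with CTCF cohesin regions without TCF-1, regions with a member were less often bound by CTCF in DN3-like cells and more often acetylated. CTCF was in both empty vector lists at 70.3% of regions with a member and 82.0% of those without TCF-1. It was in no DN3 list at 22.2% of regions with a member, against 6.83% without TCF-1. H3K27ac was in both empty vector lists at 38.4% of regions with a member, against 10.96% without TCF-1, and NIPBL at 15.1%, against 1.08%. In the narrowest group of untreated CTCF width the H3K27ac shares were 29.7% with a member and 7.77% without TCF-1, and in the widest 48.8 and 19.6%. At gene starts alone, H3K27ac covered 68.0% of regions with a member, against 42.3% of those without TCF-1, and CTCF covered 66.8% with a member, against 67.5%. Between genes, H3K27ac covered 26.2% with a member, against 9.29% without TCF-1.

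**Figure D5:**
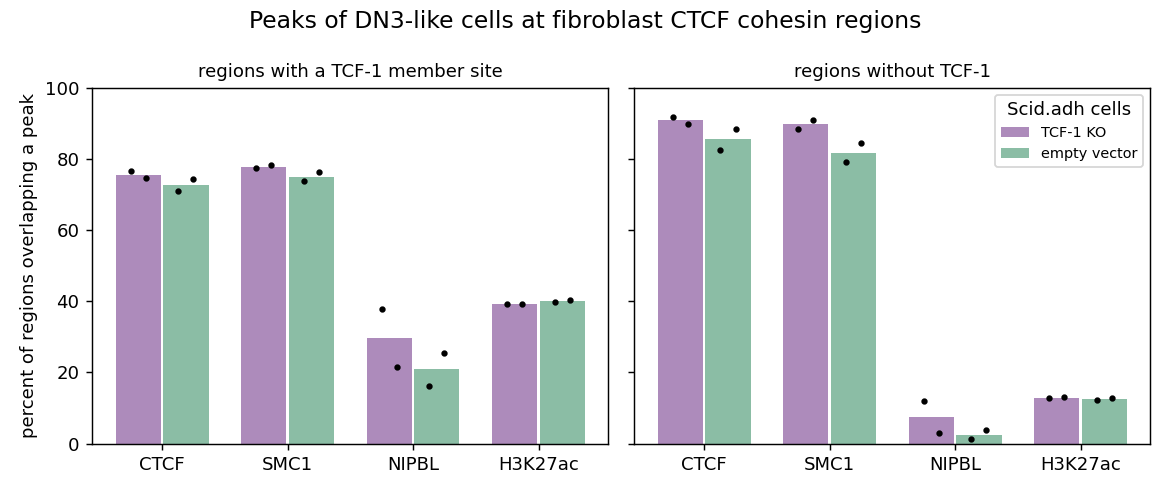
Percent of fibroblast CTCF cohesin regions with a member (left) and without TCF-1 (right) that overlap a peak of DN3-like Scid.adh cells, for TCF-1 KO (purple) and empty vector (green). Bars are the mean of 2 lists and dots the single lists. H3K27ac and NIPBL stand higher, and CTCF and SMC1 lower, at regions with a member.

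The members without DN3 CTCF differed from the rest in several measures. CTCF was in no DN3 list at 1308 members (24.5%), and there H3K27ac was in both empty vector lists at 12.0%, against 48.0% of the 3513 members with CTCF in all 4 DN3 lists. Their TCF-1 peaks were wider, with a median of 457 bp, against 326 bp. Their SMC1 peaks were wider too, at 2621 bp in induced fibroblasts, against 2607 bp in untreated fibroblasts, while members with DN3 CTCF had 1591.5 bp in induced, against 1584 bp in untreated fibroblasts. Their CTCF peaks spanned 820 and 685 bp in induced, against 460 and 522.5 bp in untreated fibroblasts. By region, untreated SMC1 spanned 2497 bp at regions with a member and no DN3 CTCF, against 768 bp at regions without TCF-1 and without DN3 CTCF.

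The 1421 sites shared with DN3 TCF-1, otherwise picked by the same rule, lay at the other end of several measures. Their TCF-1 peaks had a median of 594 bp, against 357.5 bp at members. DN3 CTCF was in both empty vector lists at 91.1% of them, NIPBL at 73.3% and H3K27ac at 97.0%. Fibroblast CTCF had a median log2 ratio of 0.38 and fibroblast SMC1 of −0.01, against 0.43 and 0.00 at members.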

How the data were processed

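Cells were crosslinked with formaldehyde and sequenced as paired reads, per the labels' protocols. Bowtie2, MACS2, bedtools and the mm10 build were named per the submitters' processing notes, without settings, versions or controls in the sources used here. The positions that the authors deposited for each peak were used, and other columns of the NIPBL and H3K27ac lists were not used here. Replicates were taken from the labels, which do not say that they came from separate cultures, so the spread between lists may be technical.

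An overlap of at least 1 bp counted. Where several peaks overlapped a site the widest was used, and a width ratio was the log2 of the geometric mean of induced over untreated widths. CTCF regions were merged peaks of both untreated lists. The medians of 2 lists against 2 were compared by a 2-sided exact permutation test. The members and gene lists were chosen with earlier results of these data known.

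Genes were 21627 protein-coding genes of RefSeq GRCm38.p6, with strand for 17273 from promoter windows of the same build. A site belonged to a gene within 10 kb of its body. Named members were the 10 with the highest lowest percentile rank of width over the 7 fibroblast lists, the 10 with the largest CTCF increase and the 10 with the largest decrease among those whose groups did not overlap, 5 each for SMC1, up to 10 without CTCF and up to 10 without SMC1 in induced cells, the genes with most members, and listed genes. Those with no gene within 10 kb were passed over. Some genes it reached are not reported here. Intervals are 95% Wilson intervals over sites.

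The code was tested on simulated peaks. Alternatives were an overlap of 50% of the shorter peak, peaks at or above their list's median width, lists of equal length, leaving out each CTCF list, summed widths, percentile ranks, quartile groups of width, a gene end within 5 kb, either untreated CTCF list, pairing by replicate number and chromosomes 1 to 19 and X. Python 3.11.15, numpy 2.4.6, pandas 2.3.3, scipy 1.17.1 and matplotlib 3.10.9 were used.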

Additional observations from a re-analysis of the deposited data

How the results depend on the processing

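Of 73 recomputed values, 57 stayed within the range of the reported value. The 57 include values that could not change, so this total is no measure of stability. The chromosome filter removed no peak, and leaving out an induced CTCF list does not touch the number of members, their SMC1 or their gene ends. Log2 widening with lists paired by number is fixed by construction. Counts of members have no interval, and 7161 members with CTCF in either untreated list still passed as the same as 5348. The difference in log2 CTCF widening between members and CTCF cohesin regions without TCF-1, −0.057 when pooled, turned to 0.034 within quartile groups of untreated CTCF width. The number of members, 5348, fell to 2085 when only peaks at or above their list's median width were used. There CTCF was in both induced lists at 97.5%, SMC1 in the induced list at 98.6%, a gene end within 1 kb of 45.8%, and CTCF wider at 1350. An overlap of 50% gave CTCF in both induced lists at 98.1%, and equal list length gave 94.7%. A gene end within 5 kb was found for 51.0%. Percentile ranks of width rose by 5.10 for CTCF and fell by 0.699 for SMC1.

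Without each CTCF list in turn, the share of members with CTCF in the induced lists ran from 91.2 to 99.5%. Log2 CTCF widening ran from 0.36 to 0.46, and its difference from regions without TCF-1 from −0.088 to −0.047. Members wider ran from 4026 to 4814, against 3762 with all lists. With a list left out, fewer widths have to be in order, so this count can only rise. The number of members ran from 5348 to 6524. The smaller CTCF share came without an untreated list, which then let in sites of 1 list. Replicate numbers only name the lists: deviations of same-numbered lists correlated at 0.01 over 5275 members. With lists paired by number (a replicate block), the log2 widening, 0.43, is the same by construction. The 4099 members wider in both pairs met a looser criterion, which all of the 3762 also meet. Neither value is therefore a check of the pairing. Chromosomes 1 to 19 and X changed nothing, since the fibroblast lists hold no others. Limits: SMC1 and TCF-1 have 1 fibroblast list each, and width is no measure of occupancy.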

Other observations

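At the 3509 members with CTCF in all 8 CTCF lists of both lines, widths can be set side by side. In fibroblasts the median width was 792 and 744 bp in induced cells, against 514 and 547 bp in untreated cells. In Scid.adh cells it was 625 and 553 bp in TCF-1 KO cells, against 462 and 583 bp in empty vector cells, with the lists of the 2 groups interleaved. The log2 ratio of cells with TCF-1 over cells without it ran from 0.34 to 0.47 over the 4 pairs of fibroblast lists and from −0.35 to 0.05 over the 4 pairs of Scid.adh lists. The difference between lines was not tested.

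The offset between TCF-1 and CTCF went with CTCF width. Members in the quartile group with the closest centres, within 65.2 bp, had CTCF of 661 and 636 bp in induced cells, against 440 and 454 bp in untreated cells, and widened in both lists at 86.1%. Those in the farthest group, over 273.5 bp, had 1432 and 1317 bp in induced cells, against 1033.5 and 1144.5 bp in untreated cells, and widened at 62.2%. A far centre needs a wide peak to overlap at all, so this order follows in part from the rule.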
